A study of Mus musculus with 2 samples.

Results

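The integrins and tetraspanins were taken from a mouse gene expression array as every gene whose symbol starts with Itga, Itgb or Tspan, apart from Itgb1bp and Itgb3bp genes, together with Cd9, Cd37, Cd53, Cd63, Cd81, Cd82 and Cd151. The choice used gene names and no measured value. Of 56 reference symbols that met this rule, 53 had a probe among the 20652 symbols on the array, 26 of them integrins and 27 tetraspanins, and no probe was matched to Itga10, Itgae or Tspan2os. BMDMs, macrophages grown from mouse bone marrow, came from 8-week-old male mice homozygous for the floxed Crif1 f/f allele and were cultured with M-CSF, the macrophage growth factor, for 7 days. Untreated BMDMs were compared with BMDMs treated with IL-4, the cytokine that drives macrophages toward the M2 state, for 18 h. Cells of both groups carried Crif1 f/f, and the study's methods name no Cre for these mice. They name no IL-4 dose for these arrays and do not say how many mice went into each RNA. Each group was 1 single-colour array of total RNA, with both arrays on 1 slide, so no difference has a replicate check, no p-value is given, and differences between cultures cannot be told apart from the effect of IL-4.

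Integrins are cell surface receptors made of an alpha and a beta chain, which together bind matrix proteins or receptors on other cells. The beta chain connects the pair to the actin cytoskeleton through talin and kindlin, and a given beta chain can pair with several alpha chains. Tetraspanins are small proteins that cross the membrane several times and gather integrins, proteases and immune receptors into membrane domains. In macrophages, integrins carry out adhesion, migration and uptake of complement-coated particles, and the tetraspanins CD9 and CD81 are known to limit cell fusion.

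The signal is the background-subtracted intensity of a spot. Before the arrays were compared, the log2 of the signal was reduced by the 75th percentile of its array, which was 9.84 for untreated and 9.94 for IL-4-treated BMDMs, and every log2 difference is IL-4-treated minus untreated on that scale. Intensities are printed before this step. A gene was read from its brightest probe, and signals of different genes are not set against each other because each probe binds its own target with its own strength. The error printed beside a difference is the SD between spots of probes printed repeatedly at a similar signal, called spot SD here. It was 0.043 to 0.39 in log2 for the integrins and tetraspanins compared and leaves out the spread between cultures. The scanner software also gave each signal an error, which the spot SD does not use. It was 10% to 20.8% of the signal for the integrins and tetraspanins measured on both arrays. In these bulk RNA samples, fewer cells of a type and less RNA per cell cannot be told apart.

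As a check of the labels, all 8 of the IL-4 response genes listed, among them Arg1 and Mrc1, were at least 2-fold higher on the IL-4 array. Of the 8 macrophage markers listed, 7 had a probe and all 7 were well above background on both arrays. Of these 7, Cd14, Fcgr1 and Mertk were at least 2-fold lower after IL-4, against 3.36% of all genes compared. Log2 differences of 2 of the 7 were above 0. That list holds Itgam, and the platelet list below holds Itga2b. Markers of other cells were measured too. All 6 fibroblast markers were well above background on both arrays, and their signals, each divided by the 75th percentile of its array, summed to 354 in untreated and 324 in IL-4-treated BMDMs. All 7 neutrophil markers with a probe were well above background, with sums of 43.0 and 38.3. Of 10 platelet and megakaryocyte markers 7 were well above background, with sums of 49.3 and 39.2, while Gp1ba, Gp5 and Gp6 were not. Most of both platelet sums came from Pf4, which macrophages also make. T cell markers were well above background for 5 of 9 untreated and 4 of 9 after IL-4, with sums of 1.33 and 1.03, and Cd3d, Cd3g, Cd8a and Cd8b1 reached that level on neither array. B cell markers were well above it for 2 of 6, with sums of 24.9 and 27.2, mostly from Blnk. The sums were 0.639 and 0.454 for mast cell and basophil markers and 31.9 and 32.4 for dendritic cell markers, the latter mostly from Siglech. They were 1.04 and 1.06 for eosinophil markers and 3.08 and 3.76 for epithelial and endothelial markers. The part of such cells in the differences below was not tested.

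The log2 differences of the integrins lay mostly below 0 and those of the tetraspanins on both sides of 0. Of the 53 genes, 43 were well above background on at least 1 array and could be compared, 42 of them on both arrays. Of these 43, 4 were at least 2-fold lower after IL-4, the alpha chains Itga8, Itga2b, Itga6 and Itga4, against a background of 3.36% of the 14050 genes compared on the whole array. None of the 43 was at least 2-fold higher, against 3.07% of all genes. At 1.5-fold, Itgb3, Tspan33 and Itgax were higher, against 6.37% of all genes. At the same cutoff 8 were lower, all of them integrins, against 8.96% of all genes. The median log2 difference was -0.44 over the 20 integrins measured on both arrays, with 15 below 0, and 0.05 over the 22 tetraspanins, with 13 above 0 and 9 below, while it was -0.01 over all genes measured on both arrays. The middle 50% of all genes lay between -0.19 and 0.15.

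**Figure D1:**
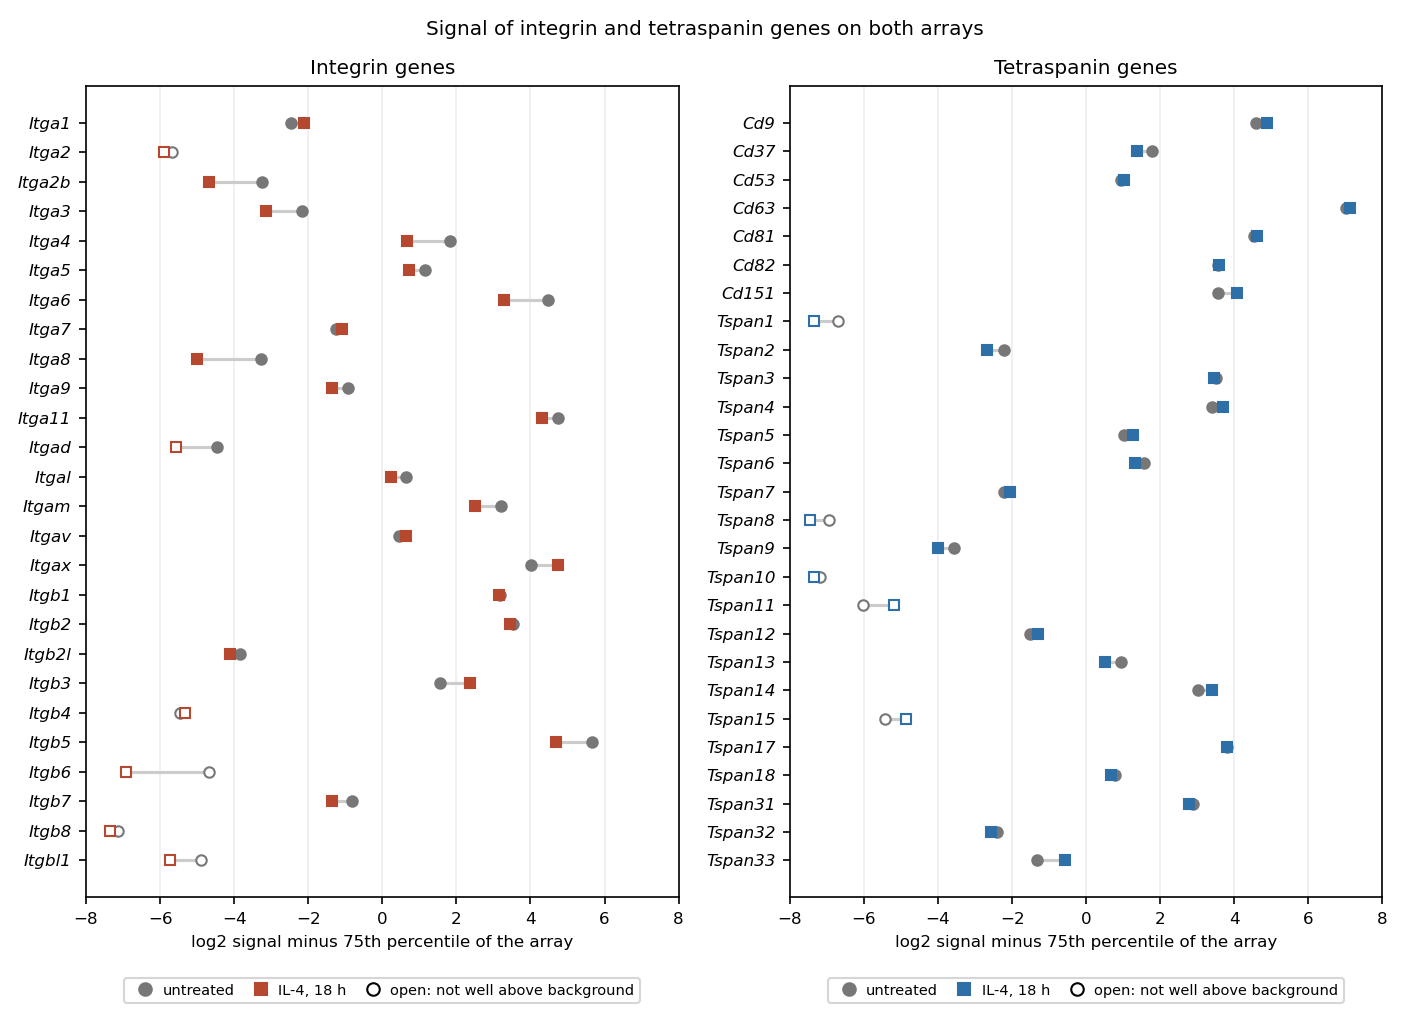
Log2 signal minus the 75th percentile of the array for each integrin gene on the left and each tetraspanin gene on the right, with circles for untreated and squares for IL-4-treated BMDMs, 1 array each. Open symbols mark a signal not well above background, which holds on both arrays for 10 genes and after IL-4 for Itgad. Itga8, Itga2b, Itga6 and Itga4 show the longest shifts to the left among filled symbols, and Itgb3, Tspan33 and Itgax the longest to the right.

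**Figure D2:**
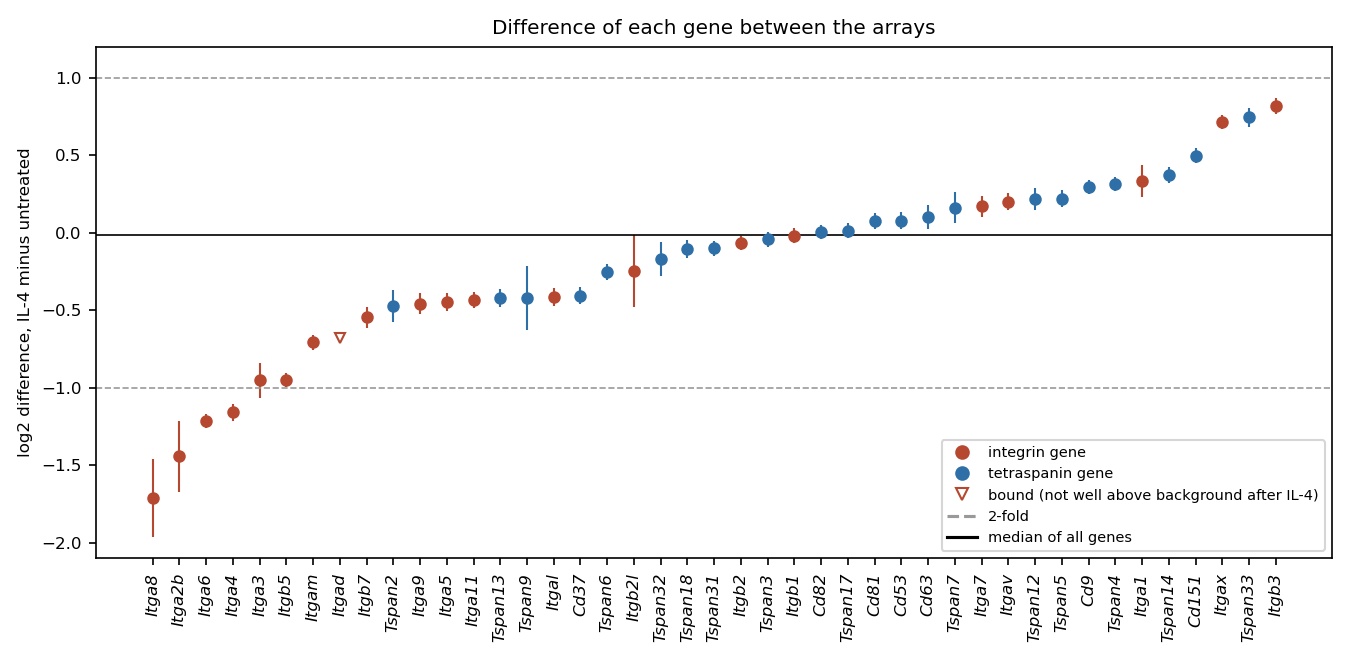
Log2 difference, IL-4-treated minus untreated, of the 43 genes compared, ordered by value, with integrins in red and tetraspanins in blue. Bars are the spot SD, the dashed lines mark 2-fold, the black line is the median of all genes at -0.01, and the triangle is the bound for Itgad. The 4 genes under the lower dashed line are integrins, and no gene lies above the upper one.

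The leukocyte integrins share the beta2 chain Itgb2 (CD18) and differ in their alpha chain. Itgb2 had an intensity of 10522 in untreated and 10780 in IL-4-treated BMDMs, a log2 difference of -0.06 that became 0.22 with spike-in scaling. Itgax encodes CD11c, the alpha chain of complement receptor CR4 and a marker of dendritic cells and adipose tissue macrophages. In adipose tissue, the study counted macrophages with CD11c protein and without CD206 (Mrc1) as M1, the inflammatory state. Itgax had an intensity of 14856 in untreated and 26198 in IL-4-treated BMDMs, 1.65-fold higher at a log2 difference of 0.72 with a spot SD of 0.045. Itgam encodes CD11b, the alpha chain of complement receptor CR3 and, with F4/80, a marker that the study used to gauge the purity of BMDMs. Its intensity went the other way, from 8399 untreated to 5518 after IL-4, 1.63-fold lower, and its dimmer probes had log2 differences of -0.24 and -0.27. Itgal (CD11a), the alpha chain of the ICAM receptor LFA-1, had 1425 and 1144, a difference of -0.42, and its dimmer probe had -0.52. Itgad (CD11d) was well above background only in untreated BMDMs, at 41.6 against 20.7, which gives at least 1.60-fold lower after IL-4. Such a bound compares the measured signal with the dimmest one that the other array could measure above background, or with the dim probe's own signal where that is higher. Itgb2l, a paralogue of Itgb2, was dim at 63.4 and 57.2, with a difference of -0.25 and a spot SD of 0.23. The RNAs of CD11c and CD11b thus differed in opposite directions, beside a shared beta chain near the median of all genes.

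The IL-4 receptor acts through STAT6, which binds TTC and GAA parted by a few bases. To show what stands before the genes discussed, RefSeq promoter windows of 250 bases before a start and 50 after it (build GRCm38.p6) were searched on both strands, and 45 of the 53 genes had a window. TTC and GAA parted by 4 bases were found in windows of Cd53, Itga3, Itgax and Tspan3, which is 4 of 45 genes. By window this is 4 of 57 or 7.02%, against 6.95% of all 32851 windows of the same length. TTCNNNGAA, with 3 bases between, was found in windows of Cd82 and Tspan9, 2 of the 57 windows or 3.51%, against 8.30% of all windows. AGGTCA and its repeat parted by 1 base, the PPAR motif DR1, were in no window of these genes and in 0.0396% of all. GAGGAA, the core of sites for the macrophage factor PU.1, was in windows of 19 genes, 20 of their 57 windows or 35.1%, against 28.3% of all windows. None of these motifs overlaps another in the bases shown. A match describes letters and is not a site shown to be bound. The 250 bases before the start are given for the 2-fold lower genes that had a window and for Itgax, which was added after its match was seen. Capitals mark TTC and GAA with the 4 bases between them in Itgax (chr7:128129300-128129549, plus strand) and GAGGAA in Itga2b (chr11:102469884-102470133, minus strand). The bases of Itga4 (chr2:79255176-79255425, plus strand) and Itga8 (chr2:12301945-12302194, minus strand) hold none of the motifs.
Itgax: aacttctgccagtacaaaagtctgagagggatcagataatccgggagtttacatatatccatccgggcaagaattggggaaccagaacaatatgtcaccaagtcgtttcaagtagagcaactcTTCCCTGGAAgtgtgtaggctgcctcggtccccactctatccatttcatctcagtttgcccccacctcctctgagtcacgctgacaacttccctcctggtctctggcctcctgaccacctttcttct
Itga2b: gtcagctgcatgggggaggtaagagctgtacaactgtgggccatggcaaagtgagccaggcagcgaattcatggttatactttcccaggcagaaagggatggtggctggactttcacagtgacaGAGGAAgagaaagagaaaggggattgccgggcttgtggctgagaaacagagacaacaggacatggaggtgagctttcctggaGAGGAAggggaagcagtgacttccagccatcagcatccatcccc
Itga4: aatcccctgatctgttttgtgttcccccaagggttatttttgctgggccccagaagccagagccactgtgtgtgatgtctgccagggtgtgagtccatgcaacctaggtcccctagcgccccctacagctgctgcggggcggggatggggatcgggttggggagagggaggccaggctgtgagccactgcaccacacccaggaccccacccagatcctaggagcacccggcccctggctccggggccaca
Itga8: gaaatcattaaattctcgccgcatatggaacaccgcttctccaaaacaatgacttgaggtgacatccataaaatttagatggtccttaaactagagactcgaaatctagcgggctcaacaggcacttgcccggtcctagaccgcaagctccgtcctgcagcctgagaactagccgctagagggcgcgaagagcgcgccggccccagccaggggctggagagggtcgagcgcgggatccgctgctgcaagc
In Itgax the match begins 127 bases before the start, and in Itga2b the matches begin 126 and 44 bases before it.

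Of the alpha4 chain and its relatives, Itga4 was past 2-fold lower, and Itgb7 and Itga9 were within 1.5-fold. Itga4 (CD49d), which pairs with Itgb1 to form the VCAM-1 receptor VLA-4 and with Itgb7 to bind MAdCAM-1, had an intensity of 3254 untreated and 1561 after IL-4. This is 2.23-fold lower, a log2 difference of -1.16 with a spot SD of 0.053, and its dimmer probe went from 63.5 to 32.9, a difference of -1.05. Itgb7, the other beta chain of alpha4, had 521 and 382, a difference of -0.55. Itga9, the chain most like alpha4 and a receptor for tenascin and osteopontin, had 485 and 379, a difference of -0.46. All 3 were below 0 under each of the 6 other scalings tried, and Itga4 was under 2-fold lower with median and spike-in scaling, at -0.94 and -0.87. Their ligand Vcam1 had 884 and 982, a difference of 0.05. Madcam1, which encodes MAdCAM-1, was dim and well above background only after IL-4, at 9.67 and 54.4. This gives at least 1.74-fold higher, beside a spot SD of 0.42.

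The chains that bind laminin, and those that bind collagen, were each on both sides of 0. Itga6 (CD49f), a laminin receptor chain, had an intensity of 20496 untreated and 9484 after IL-4, 2.32-fold lower at a log2 difference of -1.21 with a spot SD of 0.045. With spike-in scaling its difference was -0.93, and with median scaling it also lay just under 2-fold. Itga3, whose product also binds laminin and associates with the tetraspanin CD151, had 202 and 112, 1.93-fold lower with a spot SD of 0.11. Itga7, the laminin receptor chain best known from muscle, had 384 and 463, a difference of 0.17, and so does not share the direction of Itga3 and Itga6. Itga1, a collagen receptor chain, had 167 and 225, a difference of 0.34 on its brighter probe and 0.26 on its dimmer one. Itga11, a collagen receptor chain known mainly from fibroblasts, had 24577 and 19499, a difference of -0.43. The 6 fibroblast markers, measured on both arrays, went in both directions. Col1a1 had 58153 and 49150, a difference of -0.34, Col1a2 had -0.09, Col3a1 had -0.03 and Dcn had -0.14, while Pdgfra and Lum had 0.51 and 0.52. Neither array measured Itga2 well above background.

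Itgb1, the beta chain with which all of these alpha chains pair, had an intensity of 8260 untreated and 8740 after IL-4, a log2 difference of -0.02. Its dimmer probe had 0.25, and under the scalings tried the brighter one lay between -0.10 and 0.27, so no direction is given for it.

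The chains that bind the RGD motif of fibronectin and vitronectin went in both directions. Itgb3 (CD61), the beta chain of the vitronectin receptor of osteoclasts and macrophages, had an intensity of 2689 untreated and 5088 after IL-4, 1.77-fold higher at a log2 difference of 0.82 with a spot SD of 0.053. Its dimmer probe went from 113 to 188, a difference of 0.63. Itgb5, another partner of alphav and a receptor chain in the uptake of apoptotic cells, had 45944 and 25499, 1.93-fold lower at -0.95 with a spot SD of 0.043. Itgav itself had 1248 and 1538, a difference of 0.20, and its second probe had 0.07. Itga5, the alpha chain of the fibronectin receptor, had 2042 and 1606, a difference of -0.45. The pair of alphav beta chains thus differed by more than 1.5-fold in opposite directions around an alpha chain that was 1.15-fold higher. Itgb6 and Itgb8, further partners of alphav, were flagged as well above background on neither array.

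The remaining 2-fold lower genes were dim. Itga8, an RGD-binding chain known from kidney and smooth muscle, had an intensity of 93.7 untreated and 30.6 after IL-4, 3.28-fold lower with a spot SD of 0.25. Itga2b (CD41), the alpha chain of the platelet fibrinogen receptor and a marker of megakaryocytes, had 97.2 and 38.3, 2.72-fold lower with a spot SD of 0.23. All genes of similar signal had a median log2 difference of -0.18, against 0.06 for genes as bright as Itga6. With normexp background correction the log2 difference was -0.94 for Itga8 and -0.75 for Itga2b, both under 2-fold, while Itga6 and Itga4 had -1.25 and -1.13. The platelet chemokine Pf4, which is abundant in platelets and also made by macrophages, had 42570 and 36191, a difference of -0.33.

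**Figure D3:**
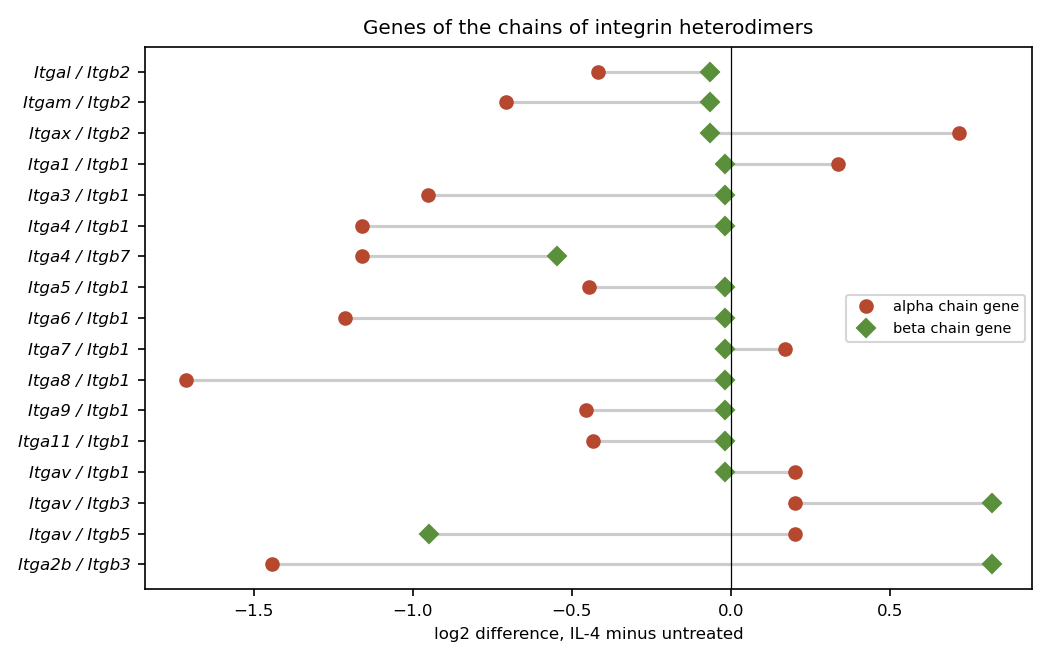
Log2 difference, IL-4-treated minus untreated, of the alpha chain and of the beta chain for known integrin heterodimers whose chains were both well above background on both arrays. Itgav stands at 0.20 with Itgb3 at 0.82 and Itgb5 at -0.95, and the chains that share Itgb1, itself at -0.02, run from Itga8 at -1.71 to Itga1 at 0.34.

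The chains of a heterodimer often had unlike log2 differences. Of the pairs in the plot of alpha and beta chains, Itga2b and Itgb3 were farthest apart, at -2.26 for the log2 difference of the alpha chain minus that of the beta chain. Itga8 and Itgb1 stood at -1.70, Itga6 and Itgb1 at -1.19, and Itgav and Itgb5 at 1.15, where Itga8 and Itga2b are the dim genes described above. Pairs share chains and so are not independent of each other. RNA of a chain does not give the level of the pair at the surface, which was not measured.

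The tetraspanins with CD names, the members best known from leukocytes, were all well above background and within 1.5-fold between the arrays. Cd9, which associates with integrins and limits macrophage fusion, had an intensity of 22030 untreated and 29014 after IL-4, 1.23-fold higher with a spot SD of 0.045. Cd81, its close relative, had 21102 and 23891, a difference of 0.08. Cd63, the tetraspanin of lysosomes and exosomes, had 119160 and 137134, a difference of 0.10 with a spot SD of 0.078 that rests on a single repeated probe. Cd151, the tetraspanin that binds laminin receptor integrins, had 10834 and 16406, 1.41-fold higher on its brighter probe, while its dimmer probe had 1273 and 1347, a difference of -0.02. Cd53, a leukocyte tetraspanin, had 1765 and 1998, a difference of 0.08, and Cd82, a tetraspanin first described as a metastasis suppressor, had 10850 and 11694, a difference of 0.01. Cd37, which in B cells and antigen presenting cells supports alpha4 integrin signalling, was lower, with 3113 and 2518, a difference of -0.41, and its dimmer probe had -0.43. The CD group had 6 of 7 genes above 0, against 6548 of the 14050 genes compared on the whole array, and a median of 0.08. All genes as bright as Cd81 and Cd82 had medians of 0.07 and 0.05. Cd81 and Cd82 were each below 0 under at least 1 scaling.

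The TspanC8 tetraspanins carry the protease ADAM10 to the cell surface. Of the 6 genes in this group, 4 were well above background, with a median of 0.30. All 4 had differences above 0, against 6548 of the 14050 genes compared on the whole array. Tspan33 had an intensity of 368 untreated and 661 after IL-4, 1.68-fold higher at a log2 difference of 0.75 with a spot SD of 0.061, the highest difference among the tetraspanins. Tspan14 had 7428 and 10305, 1.29-fold higher. Tspan5 had 1875 and 2341, a difference of 0.22, and its dimmer probe had 0.41. Tspan17 had 12678 and 13729, a difference of 0.02 that was below 0 under at least 1 scaling. Tspan10 and Tspan15 were well above background on neither array. Adam10 itself had 6352 and 7209, a difference of 0.08, and Adam17, a related sheddase not known to depend on TspanC8 proteins, had 122 and 147, a difference of 0.17.

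Of the 14 other Tspan genes, 11 were well above background, with a median of -0.10. Of these 11, 8 were below 0, against 7502 of the 14050 genes compared on the whole array. Tspan4, a tetraspanin of migrasomes, the vesicles left behind by migrating cells, was the highest of them, with 9558 untreated and 12752 after IL-4, a difference of 0.32. Tspan12, a co-receptor in Norrin signalling, and Tspan7 had 0.22 and 0.16. Tspan2, Tspan13 and Tspan9 were lowest, at -0.47, -0.42 and -0.42. Tspan2 had 198 and 153, but its dimmer probe had a difference of 0.00. Tspan9 was dim at 76.5 and 61.3, with a spot SD of 0.21. Tspan13 had 1756 and 1404 with a spot SD of 0.059. Tspan6 and Tspan32 had -0.25 and -0.17, while Tspan18, Tspan31 and Tspan3 had -0.10, -0.10 and -0.04, and each of these 5 was above 0 under at least 1 scaling. No Tspan gene outside the TspanC8 group differed by 1.5-fold.

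No fold can be given for the 10 genes that neither array measured well above background, which were Itga2, Itgb4, Itgb6, Itgb8, the integrin-beta-like gene Itgbl1, Tspan1, Tspan8, Tspan10, Tspan11 and Tspan15.

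**Figure D4:**
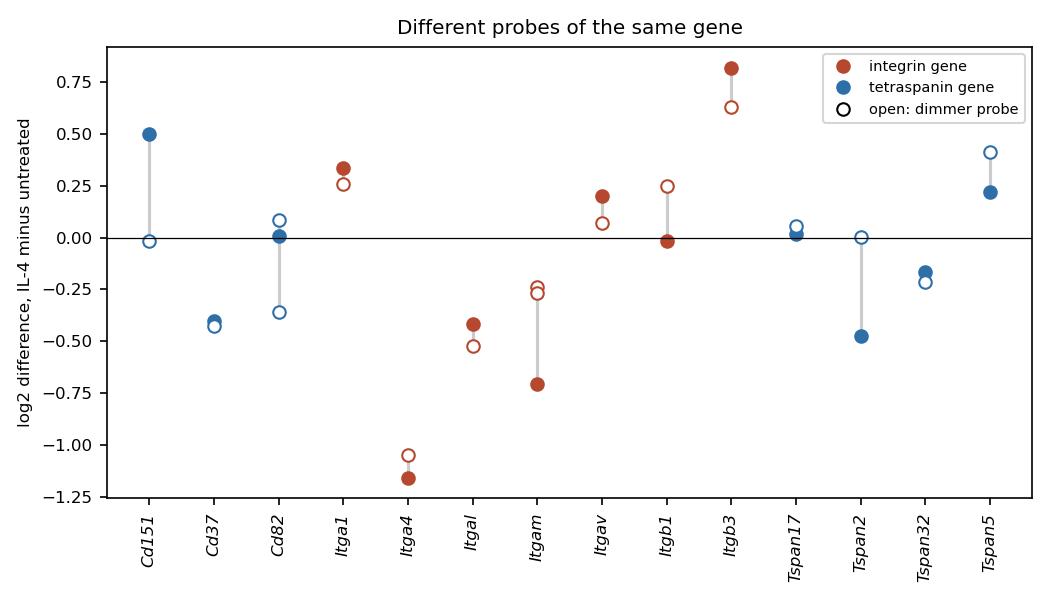
Log2 difference, IL-4-treated minus untreated, of each probe for the 14 integrin and tetraspanin genes with more than 1 probe well above background on both arrays. The probes lie closest for Cd37, 0.02 apart, and farthest for Cd151, 0.52 apart.

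Several probes of a gene allow a check within the arrays. Of 17 genes with several probes, 14 had at least 2 measured on both arrays, and in 10 of these all such probes lay on the same side of 0. Cd151, Cd82, Itgb1 and Tspan2 had probes on both sides. Itga4 and Itgb3 held their direction on each probe, within 0.11 and 0.19 of each other, and Itgam held it with probes 0.47 apart. Itga6, Itgb5, Itgax, Tspan33, Itga8 and Itga2b each rest on 1 probe printed in 1 spot.

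Of 33 integrin ligands, 28 were compared. Of these, 2 were at least 2-fold higher and none 2-fold lower, against 3.07% and 3.36% of all genes, with a median of 0.01. Icam1, the ligand of LFA-1 and CR3, had 161 untreated and 373 after IL-4, 2.16-fold higher, and 0.56 in log2 with normexp, under 2-fold. Cdh1 (E-cadherin), which binds alphaE beta7 integrin and takes part in macrophage fusion, was well above background only after IL-4, at 10.5 and 561, at least 17.9-fold higher, a log2 bound of 4.16 that was 2.59 with normexp. The ligands with the highest signal in the list, which does not hold Col1a2, were Mfge8, Fn1 and Col1a1, with differences of -0.33, 0.02 and -0.34. Of 41 activation and adaptor genes with a probe, 39 were compared, of which 1 passed 2-fold upward and 1 downward, and the median was -0.10. Fgr, a Src family kinase downstream of beta2 integrins, had 369 and 1235, 3.12-fold higher, and Src itself, well above background only in untreated BMDMs at 111 and 26.7, was at least 4.26-fold lower, a log2 bound of -2.09 that was -1.09 with normexp. Tyrobp, Flna and Tln1, the brightest of this list, had differences of -0.28, -0.12 and -0.14, where Flna encodes filamin A and Tln1 encodes talin.

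Tetraspanin partner proteins had a median of 0.02, with 20 of 24 compared and no difference or bound past 2-fold in either direction. For 2 of these 20 only a bound could be given, so their full fold is not known. The brightest genes of this list were Fcer1g at -0.18, Igsf8, a direct partner of CD9 and CD81, at -0.22 and Cd47, the ligand of SIRPalpha, at 0.45. Of the 4 other genes of the tetraspanin superfamily, Rom1 and Upk1a were compared, at -0.00 and -0.16. Of 13 macrophage fusion genes, 2 were at least 2-fold higher, Cdh1 and Ocstamp, the osteoclast fusion protein, which had 79.2 and 659 and was 7.77-fold higher. Its log2 difference of 2.96 was 2.02 with normexp. The share of all genes that were 2-fold higher was 3.07%. The median of that list was 0.03, and its brightest genes, Trem2, Tyrobp and Acp5, had -0.03, -0.28 and 0.25.

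**Figure D5:**
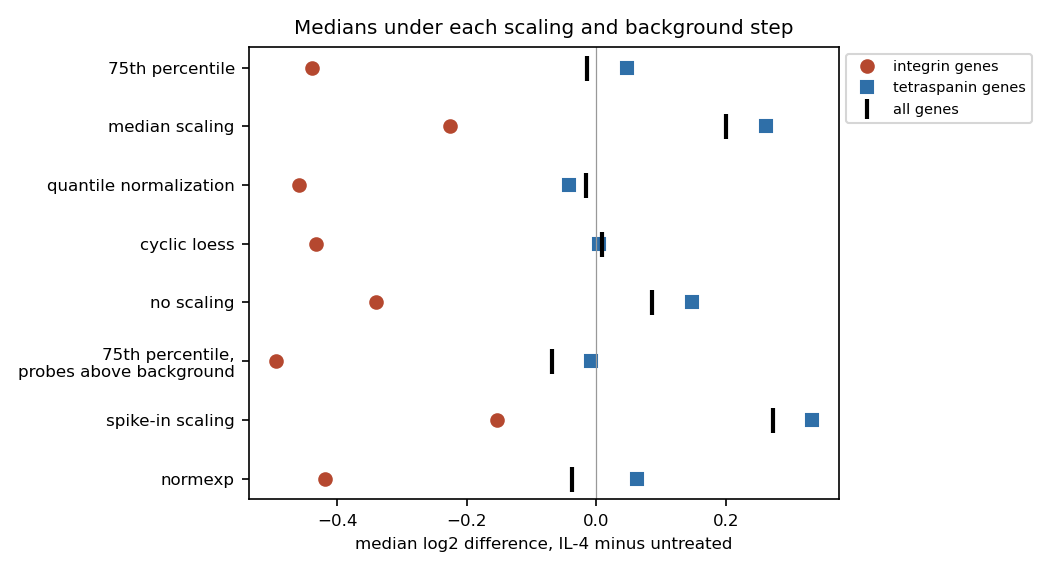
Median log2 difference, IL-4-treated minus untreated, of all genes, integrins and tetraspanins well above background on both arrays, under 75th percentile scaling and the alternatives. The integrin median lies 0.42 to 0.49 below the tetraspanin median under every setting shown, a gap that scalings shifting all genes alike cannot change. The median of all genes lies highest, at 0.27, with spike-in scaling.

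How far each direction depends on scaling was measured, because scaling sets where 0 lies. The median over all genes moved by 0.21 with median scaling and by 0.29 with spike-in scaling. The median of the integrins lay below that of the tetraspanins by 0.49. Median scaling, no scaling, the percentile over detected probes, spike-in scaling and the authors' processed values shift all genes alike. They could change neither this gap nor a gene's place against the median of all genes. The integrin median lay lower by 0.42 with quantile normalization and 0.44 with cyclic loess. It lay lower by 0.48 with normexp and 0.50 with the median over the probes of a gene. Between 13 and 15 of the 20 integrins lay below the median of all genes, as did 9 to 12 of the 22 tetraspanins. Under the 6 other scalings 32 of the 43 genes kept their sign, and the other 11 were Cd81, Cd82, Itgb1, Itgb2, Itgb2l, Tspan3, Tspan6, Tspan17, Tspan18, Tspan31 and Tspan32.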

How the data were processed

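Total RNA of untreated and IL-4-treated BMDMs was hybridised to 1 single-colour (Cy3) Agilent array per group. The sample labels gave the groups. The authors deposited the scanner's files (Feature Extraction 10.10.1.1), whose intensity values had local background and within-array trends removed but were not scaled between arrays. A second deposited table holds the authors' processed log2 values, whose tool, scaling and centring are not given in the sources used here. Its columns had medians of 0.161 and 0.0160, and its differences for the 73 probes of these genes matched those of the log2 intensity within 1.51e-06 after a constant offset, so its log base and direction are those used here. Control spots and outlier flags were left out, repeated spots were averaged, and each array's 75th percentile was subtracted. Of 39424 probes, 27223 were named through their RefSeq accession and a GRCm38.p6 table, giving 20652 symbols. The array design was annotated on mm9, so probe coordinates are not given.

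Of 43020 gene spots on each array, 59.8% (untreated) and 57.4% (IL-4) were well above background and 0 were saturated. Precision is limited by the number of arrays. The spot SD is the median SD, over repeatedly printed probes within 1 log2 unit of the gene's signal, of the log2 difference between spots. With 1 array per group no test was run, and genes past 2-fold were counted. Counting was tested on simulated data with 4-fold changes planted in bright probes. Changes in dim genes, bounds and changes near 2-fold were not part of that simulation. All genes meeting the rule are accounted for. From the surrounding lists, genes past 2-fold and the brightest 3 are named. Vcam1, Madcam1, Adam10, Adam17, the fibroblast markers and Pf4 were added for their relation to a gene described. An item of these lists is not reported here. The genes and lists were chosen with earlier results of these data known. Alternatives were 6 other scalings (median, quantile, cyclic loess, none, the percentile over probes detected on both arrays, spike-in probes), normexp with an offset of 50, the authors' processed values, other rules for dim probes, several probes and outlier flags, and cutoffs of 1.5-fold and 4-fold. Python 3.11.15, numpy 2.4.6, pandas 2.3.3, matplotlib 3.10.9, R 4.3.3 and limma 3.58.1 were used.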

Additional observations from a re-analysis of the deposited data

How the results depend on the processing

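No paired analysis was possible because there was only 1 array for untreated and 1 for IL-4-treated BMDMs, and no replicate could be left out. The count of integrins and tetraspanins at least 2-fold higher after IL-4, which was 0, became 1 with median scaling (Itgb3), 3 with spike-in scaling (Itgax, Itgb3 and Tspan33) and 3 at 1.5-fold. The count at least 2-fold lower, which was 4, became 2 with median scaling and 2 with spike-in scaling (Itga2b and Itga8), 2 with normexp (Itga4 and Itga6), 8 at 1.5-fold and 0 at 4-fold. It was 5 with quantile normalization and cyclic loess, where Itgb5 was added, and 6 with the percentile over probes detected on both arrays, where Itga3 and Itgb5 were added. With the authors' processed values, which carry no background flags, and with no filter on dim probes it was 6, where Itgad and Itgb6 were added. The median log2 difference of -0.08 over the genes measured on both arrays became 0.13 with median scaling, 0.018 without scaling and 0.20 with spike-in scaling. Of 690 values of single genes under the alternatives, 316 moved by more than the spot SD. None of those for genes past 2-fold changed direction. The scalings that shift all genes alike moved them by at most 0.29 in log2, so they could not reverse a 2-fold difference. For dim genes such as Itga8 and Itga2b the signal over background limits the size of the fold. Spot SD covers neither cultures nor labelling.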
